A study of Mus musculus with 42 samples.

Results

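Among the 24466 gene symbols counted in the RNA-seq libraries, 9 genes that act when myoblasts fuse were followed: Tmem8c, Tmem182, Myof, Dysf, Jam2, Jam3, Kirrel, Adam12 and Cdh2. They were taken by symbol, as a set put together with earlier results of these data known, and Tmem8c is the symbol by which these files list myomaker, now named Mymk. All 9 were found in the files and all 9 passed the filter on low counts, as did 14836 genes in all.

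Skeletal muscle fibres form when myoblasts leave the cell cycle, recognise each other through adhesion molecules, press their membranes together with the help of actin and merge. Myomaker, a membrane protein with several membrane-spanning stretches, and the small protein myomerger carry out the merging of the membranes and are made by muscle cells as they differentiate. Ferlins are calcium-binding proteins that move and mend membranes, while cadherins, Jam proteins and Kirrel proteins hold or recognise the neighbouring cell.

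RNA was sequenced from iPax7 cells, which are myogenic precursors obtained from mouse embryonic stem cells by switching on a doxycycline (Dox)-inducible Pax7, and from satellite cells, the stem cells of adult muscle. The +Dox group (3 libraries) was grown with 0.75 µg/ml Dox and basic FGF, and the -Dox group (2 libraries) came from these cells 3 days after the change to medium without Dox. The satellite cells (3 libraries) were isolated from skeletal muscle of mice with a Pax7-ZsGreen reporter, and neither their age nor the number of animals was given in the sources used here. ATAC-seq peaks covered 10 conditions. These were +Dox cells, cells at 12 h, 24 h and 3 days without Dox, myotubes made from iPax7 cells in medium with 2% horse serum, satellite cells, and 4 populations of C2C12, an established line of mouse myoblasts. The C2C12 cells were myotubes in 2% horse serum and myoblasts in 10% FBS that had no transgene, a Flag-only control or a Flag-tagged Pax7 (Pax7-Flag), and both of the latter were stable lines. Peaks of 4 histone marks were used for +Dox cells, cells at 3 days without Dox and the C2C12 myoblasts with the Flag control or Pax7-Flag, and Pax7 binding sites for +Dox cells. No group took Dox without the inducible Pax7, so effects of the drug and of Pax7 cannot be told apart. Each group is 1 sample with several count files, and no source used here says that these came from separate cultures or animals, so p-values measure the spread between the libraries only.

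Counts on genes ran from 39010958 to 54674619 per library, and counts below were normalized to a common library size (normalized read counts). Pax7 had between 11610.2 and 14129.7 normalized read counts in +Dox libraries, and 221 and 269.5 in -Dox libraries. The third +Dox library stood apart from the other two, with a chi-square per degree of freedom of 426 and 307 against them where they had 47.9 between themselves. The satellite cell libraries were as far from each other, at 428, 394 and 260, and the -Dox libraries had 51.3. Without the third +Dox library, edgeR called the same members in each comparison. Reads that aligned to several places made up 23.6 to 30.7% of the total in satellite cells and 7.11 to 7.60% in iPax7 cells.

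After Dox withdrawal the fusogen Tmem8c, Tmem182 and the ferlin Dysf rose, while the ferlin Myof and the 5 adhesion genes did not pass the test. In -Dox against +Dox cells 3 of the 9 genes were thus higher, where 4.66% of all genes tested were higher and 3.04% were lower. None of the 9 was lower in this fit of edgeR, where none had an unadjusted p under 0.05 in that direction, or by DESeq2. The median log2 fold change was 0.71 over the 9 genes and -0.0049 over all genes tested. Values of the -Dox and +Dox libraries did not overlap for 5 of the 9 genes, as for 45.3% of all genes. A gene was called when edgeR's quasi-likelihood test gave it an adjusted p under 0.05, with the adjustment made over all genes tested, and 7.70% of all genes were called in 1 direction or the other.

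**Figure D1:**
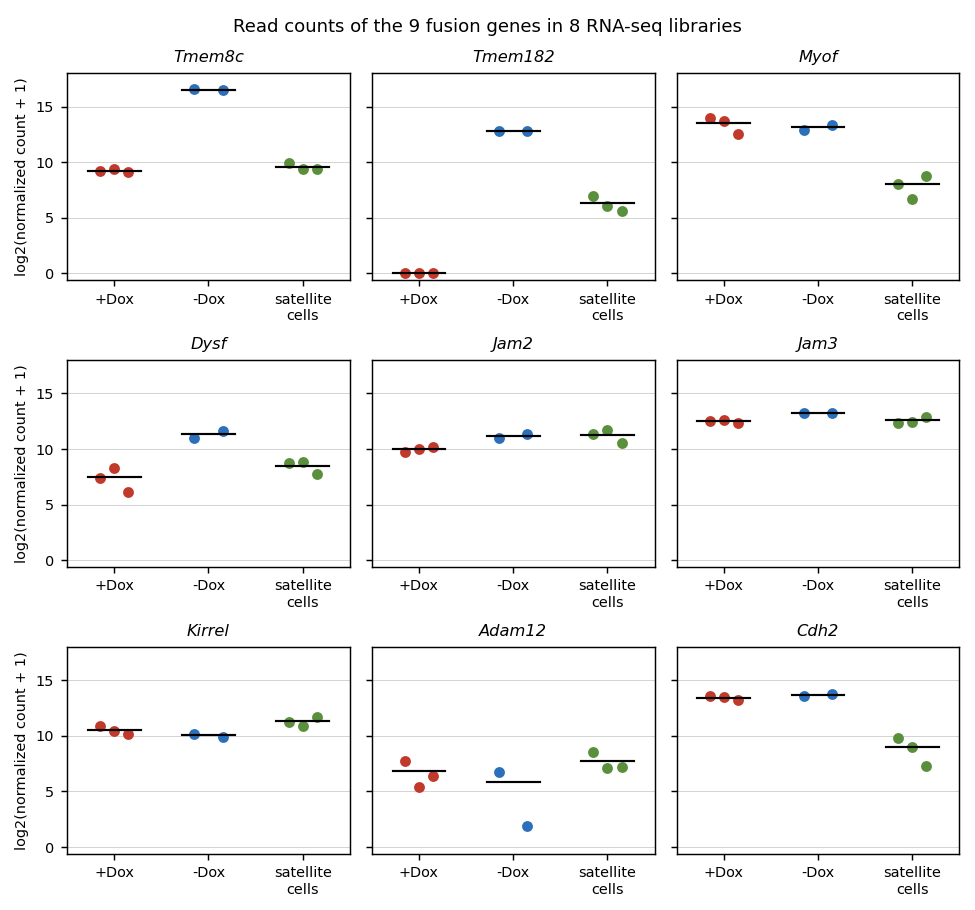
Each panel plots 1 gene, with log2(normalized read count + 1) on the y axis, a point for each library of the +Dox (3), -Dox (2) and satellite cell (3) groups and a line at the log2 of the group mean. Tmem8c and Tmem182 stand far higher in -Dox cells than in both other groups, and Myof and Cdh2 stand lowest in satellite cells.

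Tmem8c, the fusogen myomaker (chr2:26917156-26927699 of NCBIM37, minus strand), had 575, 652 and 549 normalized read counts in the +Dox libraries. It had 96769.9 and 92571 in the -Dox libraries and 969, 678 and 684 in satellite cells. Every -Dox library thus exceeded every other library by far, and all +Dox libraries lay below all satellite cell libraries. The rise on Dox withdrawal was 159.8-fold (log2 fold change 7.32, SE 0.30, adjusted p = 6.41e-06). Against satellite cells, -Dox cells were 122-fold higher (log2 fold change 6.93, SE 0.29, adjusted p = 3.73e-06), while the lower level of +Dox cells did not pass the test (log2 fold change -0.39, SE 0.22, adjusted p = 0.18). In a bulk sample, a change in the share of cells that express a gene and a change in RNA per cell cannot be told apart. The summed level of 8 myofibre markers moved with this rise, at 3078 to 3164 normalized read counts in +Dox, 5910 to 12539 in satellite cells and 1364783 to 1439756 in -Dox libraries, and its part in the result was not tested.

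Scaled by exon length and library size (RPKM), Tmem8c was by far the most abundant of the 9 genes in -Dox cells, with a mean level of 1325 ± 41.6 (SD, n = 2). The next was Tmem182 with 137, followed by Jam3 with 78.6. In +Dox cells the order was another, led by Jam3 at a mean RPKM of 47.9, Myof at 34.3 and Cdh2 at 29.4, with Tmem8c at 8.29. The range of Myof there (17.2 to 46.6) overlapped those of Jam3 (43.1 to 52.1) and Cdh2 (24.8 to 32.6). Jam3 also led in satellite cells, with a mean RPKM of 50.6, ahead of Tmem8c at 10.9 and Jam2 at 8.90. The ranges of Tmem8c (9.49 to 13.6) and Jam2 (5.48 to 11.9) overlapped there.

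The 300 bases before the first annotated start of Tmem8c are shown because an ATAC-seq peak covered this start in myotubes. The capitals mark each match to the E-box letters CANNTG, the sequence bound by Myod1 and myogenin, which reads the same on both strands. There were 3, beginning 51, 40 and 28 bases before the start, and the one nearest to the start was CAGCTG. Of 22238 protein-coding promoters of this length, 15.6% held at least 3 CANNTG and 13.6% held a CAGCTG.
Tmem8c promoter, chr2:26927700-26927999, minus strand: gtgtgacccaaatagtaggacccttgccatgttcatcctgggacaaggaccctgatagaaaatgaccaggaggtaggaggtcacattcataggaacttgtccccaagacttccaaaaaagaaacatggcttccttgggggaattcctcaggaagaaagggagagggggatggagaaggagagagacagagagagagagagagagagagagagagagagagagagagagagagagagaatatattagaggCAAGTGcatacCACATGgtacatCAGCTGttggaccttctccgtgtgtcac

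No ATAC-seq peak lay within 1 kb of a Tmem8c start in +Dox iPax7 cells, satellite cells or any of the 3 C2C12 myoblast populations. With 2 kb on each side, Tmem8c had a peak in all of these. At 12 h, 24 h and 3 days without Dox, a low peak stood 777 to 821 bp downstream of the start, with fold enrichments of 3.04, 2.96 and 3.33, and did not reach it. When a -log10 q of at least 5 was required, the peak at 3 days stayed and those at 12 h and 24 h were lost. A gain of this peak on Dox withdrawal thus depends on the window and the threshold. A peak over the start itself was present in both kinds of myotubes, with a fold enrichment of 5.15 in iPax7 myotubes (summit 47 bp upstream) and 4.46 in C2C12 myotubes (summit 13 bp upstream). At 3 days without Dox, when the transcript was already abundant, the start had thus no called peak over it. The histone marks of active chromatin covered more of the 2001 bp around this start after Dox withdrawal, from 807 to 1730 bp for H3K27Ac, from 1101 to 1944 bp for H3K4me1 and from 604 to 1826 bp for H3K4me3. From +Dox to 3 days without Dox the number of peaks in the whole file went from 119528 to 90168 for H3K27Ac, from 186990 to 243932 for H3K4me1 and from 94067 to 214172 for H3K4me3. Each condition has a single peak file made from merged replicates, so none of these differences has a replicate check.

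Myomerger, listed as Gm7325, is the partner of myomaker in membrane merging, and it was no member of the set of 9. It had 45.8, 51.1 and 108 normalized read counts in +Dox, 11097 and 11040.1 in -Dox and 96.1, 0 and 1.32 in satellite cell libraries. Like Tmem8c it was far higher in both -Dox libraries than in any other (log2 fold change 7.34, SE 1.36, adjusted p = 0.0108 against +Dox). Its start differed from that of Tmem8c in carrying an ATAC-seq peak in each of the 5 iPax7 states. The fold enrichment was 7.66 in +Dox cells, 3.50 at 12 h, 5.18 at 24 h and 4.16 at 3 days without Dox. In iPax7 myotubes it was 12.3, and satellite cells had no peak there. Those genes whose pattern over the 8 libraries was most like that of Tmem8c, by Pearson's r of log2(normalized count + 1), were 2310065F04Rik (0.998), Folr1 (0.997) and Ripply1 (0.997). The 8 libraries form 3 groups and share the cell source within a group, so such an r largely restates the group means.

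Tmem182 (chr1:40862446-40912112, plus strand) encodes a membrane protein of muscle related to the claudins. It had no read in any of the 3 +Dox libraries, and 6939 and 7234 normalized read counts in the -Dox libraries. In satellite cells it had 122, 64.3 and 46.2, from 93, 48 and 35 reads. The groups did not overlap, with -Dox highest and +Dox lowest. Taking a count of 3 per library as the limit that a count of 0 allows, -Dox cells were at least 2950.1-fold higher than +Dox cells (adjusted p = 6.11e-05). Satellite cells were at least 32.3-fold higher than +Dox cells (adjusted p = 0.000153), and -Dox cells were 91.1-fold higher than satellite cells (log2 fold change 6.51, SE 0.52, adjusted p = 0.000129). Its closest patterns over the 8 libraries were those of Myot, which encodes the sarcomere protein myotilin (r = 0.994), Tecrl (0.993) and Atp1b4 (0.993).

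The promoter of Tmem182 is shown as the second gene whose start was open in myotubes alone. It held 2 CANNTG (capitals), beginning 193 and 41 bases before the start, and the nearer one was CAGCTG. At least 2 CANNTG were present in 37.3% of all promoters.
Tmem182 promoter, chr1:40862146-40862445, plus strand: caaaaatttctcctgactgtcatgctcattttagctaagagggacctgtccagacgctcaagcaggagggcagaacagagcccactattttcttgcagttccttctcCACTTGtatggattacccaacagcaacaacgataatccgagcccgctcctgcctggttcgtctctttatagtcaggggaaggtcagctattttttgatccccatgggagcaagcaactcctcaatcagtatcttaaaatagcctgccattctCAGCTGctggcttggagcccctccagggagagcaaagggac

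An ATAC-seq peak at Tmem182 was called in iPax7 myotubes (fold enrichment 14.5, summit 65 bp upstream) and in C2C12 myotubes (14.8, summit 74 bp upstream), and in none of the other 8 conditions, -Dox 3 days included. In +Dox cells none of the 4 histone marks had a peak within 1 kb of the start. At 3 days without Dox, H3K27Ac covered 1317 bp, H3K4me1 1371 bp and H3K4me3 971 bp of the 2001 bp. C2C12 myoblasts with Pax7-Flag or with the Flag control likewise had no peak of any of the 4 marks there. So at 3 days both Tmem8c and Tmem182 had the transcript, and marks within 1 kb, without a called ATAC-seq peak over the start. Of the 3 active marks, H3K4me1 alone covered the first Tmem8c start and the Tmem182 start, and H3K27Ac and H3K4me3 lay beside them. Within 1 kb, Tmem8c had an ATAC-seq peak at 3 days (3.33) and Tmem182 had none.

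The ferlins Myof and Dysf followed unlike patterns over the groups, and their levels overlapped in satellite cells. Myof, or myoferlin (chr19:37973526-38118067, minus strand), had 15754, 13205 and 5809 normalized read counts in +Dox libraries. It had 7500.0 and 10421 in -Dox libraries and 261, 99.2 and 423 in satellite cells. The +Dox and -Dox libraries overlapped, and all 5 lay far above the satellite cells. Dox withdrawal gave no call for Myof (log2 fold change -0.37, SE 0.57, adjusted p = 0.807), whereas +Dox cells were 44.4-fold above satellite cells (log2 fold change 5.47, SE 0.61, adjusted p = 0.000154) and -Dox cells 34.3-fold (log2 fold change 5.10, SE 0.62, adjusted p = 0.000308).

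Dysf, or dysferlin, which mends torn fibre membranes (chr6:83958584-84161054, plus strand), had 171, 307 and 71.0 normalized read counts in +Dox libraries. There were 2022 and 3142 in -Dox libraries and 428, 448 and 214 in satellite cells. Both -Dox libraries were above all others, and the +Dox and satellite cell libraries overlapped. The rise on Dox withdrawal was 14.1-fold (log2 fold change 3.81, SE 0.62, adjusted p = 0.00564), and -Dox cells were 7.11-fold above satellite cells (log2 fold change 2.83, SE 0.60, adjusted p = 0.0055). Between +Dox and satellite cells no difference was called (log2 fold change -0.98, SE 0.54, adjusted p = 0.166). Closest in pattern was Pygm, the glycogen phosphorylase of muscle (r = 0.985). As a level, Dysf stayed low, with a mean RPKM of 6.55 ± 2.01 (SD, n = 2) in -Dox cells beside 26.5 for Myof.

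The start of Dysf, a gene that rose on Dox withdrawal as well, is shown because it was open in 9 of the 10 ATAC-seq conditions. It is the only promoter of this kind shown, and those of Jam2, Jam3, Kirrel and Cdh2 were not looked at one by one. The Dysf promoter had no match to CANNTG, which 70.2% of all promoters had at least once.
Dysf promoter, chr6:83958284-83958583, plus strand: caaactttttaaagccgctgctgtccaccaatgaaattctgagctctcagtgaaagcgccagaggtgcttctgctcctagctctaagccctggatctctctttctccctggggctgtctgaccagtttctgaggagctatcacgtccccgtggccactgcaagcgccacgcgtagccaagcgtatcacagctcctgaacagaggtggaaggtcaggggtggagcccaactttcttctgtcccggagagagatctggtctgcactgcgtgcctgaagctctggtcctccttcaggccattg

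At Dysf the highest ATAC-seq peak near a start had a fold enrichment of 12.8 in +Dox cells, 9.58 at 12 h, 16.3 at 24 h and 15.6 at 3 days without Dox and 15.4 in iPax7 myotubes. In satellite cells it was 9.96, and only the C2C12 myoblasts without a transgene had no peak. At Myof the highest peak had a fold enrichment of 17.3 in +Dox cells, 32.8 in iPax7 myotubes and 10.5 in satellite cells. Its summit lay 904 to 1045 bp downstream of the start in these. At 12 h, 24 h and 3 days the highest peak, at 8.64, 13.7 and 14.6, had its summit 25 to 45 bp downstream. The values of Myof thus do not follow a single site.

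Among the 5 adhesion genes, none passed edgeR's test after Dox withdrawal, and 2 (Jam2 and Jam3) had an unadjusted p under 0.05 and were called by DESeq2. Jam2, a junctional adhesion molecule (chr16:84774368-84826173, plus strand), had 869, 1036 and 1151 normalized read counts in +Dox, 2091 and 2608 in -Dox and 2587, 3308 and 1522 in satellite cell libraries. All +Dox libraries were below all others, and those of -Dox and satellite cells overlapped. Jam2 was 2.43-fold lower in +Dox than in satellite cells (log2 fold change -1.28, SE 0.33, adjusted p = 0.0125), and without the first +Dox library this call was lost (log2 fold change -1.13). The higher level in -Dox than in +Dox cells missed the threshold (log2 fold change 1.21, SE 0.36, adjusted p = 0.0799), but was called when only the 2 groups were fitted.

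Jam3, which binds Jam2 (chr9:26904969-26963003, minus strand), had 5815, 6256 and 5173 normalized read counts in +Dox, 9459 and 9397 in -Dox and 5258, 5429 and 7536 in satellite cell libraries. Both -Dox libraries were above all others, but the difference from +Dox was not called (log2 fold change 0.71, SE 0.26, adjusted p = 0.134), nor was that from satellite cells (log2 fold change 0.63, SE 0.26, adjusted p = 0.0748). DESeq2 gave log2 fold changes of 0.76 and 0.62 for these and called both. The +Dox and satellite cell libraries overlapped (log2 fold change -0.08, adjusted p = 0.808).

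Kirrel, of the immunoglobulin family and related to the fly fusion receptor Kirre (chr3:86882515-86978669, minus strand), had 1882, 1368 and 1122 normalized read counts in +Dox, 1185 and 934 in -Dox and 2439, 1894 and 3393 in satellite cell libraries. Every satellite cell library was above every iPax7 library. The -Dox cells were 2.43-fold lower than satellite cells (log2 fold change -1.28, SE 0.38, adjusted p = 0.025), and the call was lost without the first -Dox (log2 fold change -1.46), the second -Dox (-1.07) or the third satellite cell library (-1.04). The lower level in +Dox cells missed the threshold (log2 fold change -0.82, SE 0.33, adjusted p = 0.0664) and Dox withdrawal gave no call (log2 fold change -0.46, SE 0.37, adjusted p = 0.548).

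Adam12, a membrane-bound protease also named meltrin alpha (chr7:141074882-141423829, minus strand), had the lowest mean RPKM of the 9 genes in -Dox (0.142) and satellite cells (0.553), and the lowest after Tmem182 in +Dox cells (0.289). Its range overlapped that of Dysf in +Dox cells and those of Tmem182, Myof, Dysf and Cdh2 in satellite cells. There were 213, 42.2 and 83.8 normalized read counts in +Dox, 108 and 2.77 in -Dox and 366, 139 and 144 in satellite cell libraries. The -Dox libraries differed from each other far more than for any other member, and the lower of them rested on 3 reads. No comparison of Adam12 was called, with adjusted p = 0.751 for -Dox against +Dox, 0.533 for +Dox against satellite cells and 0.277 for -Dox against satellite cells. Without the first -Dox library, which leaves the one with 3 reads, the last of these was called (log2 fold change -6.22).

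Cdh2, or N-cadherin (chr18:16747386-16967755, minus strand), had 12428, 11713 and 9455 normalized read counts in +Dox, 12089 and 13617 in -Dox and 886, 497 and 159.6 in satellite cell libraries. Both iPax7 groups overlapped and lay far above all satellite cell libraries. Withdrawal of Dox gave no call (log2 fold change 0.20, SE 0.53, adjusted p = 0.921), and this small difference turned negative when counts were scaled by their totals (-0.024). Against satellite cells, Cdh2 was 21.8-fold higher in +Dox (log2 fold change 4.44, SE 0.56, adjusted p = 0.000267) and 25.0-fold higher in -Dox cells (log2 fold change 4.64, SE 0.58, adjusted p = 0.000351). Most like it in pattern was Pard6g, a cell polarity gene (r = 0.997).

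**Figure D2:**
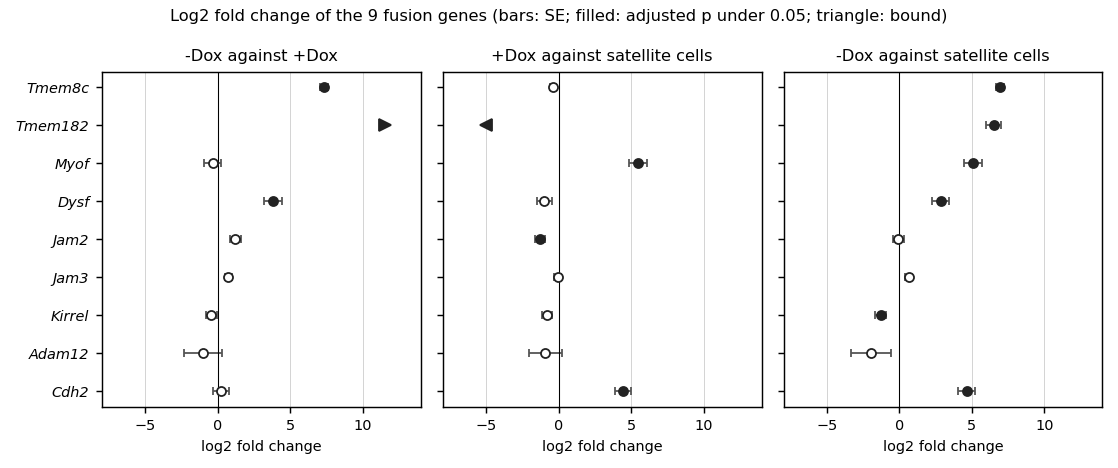
The log2 fold change of each gene is plotted on the x axis for the 3 comparisons, with bars for the SE, filled points for an adjusted p under 0.05 and triangles for the bound of Tmem182 against +Dox cells. After Dox withdrawal Tmem8c, Tmem182 and Dysf are filled, and against satellite cells Myof and Cdh2 are filled on the higher side in both iPax7 groups.

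Set against satellite cells, +Dox cells had 2 members higher (Myof and Cdh2), 2 lower (Jam2 and Tmem182) and 5 that did not pass the test. That is a share like that of all genes, of which 44.9% were called, 19.8% higher and 25.1% lower. The -Dox cells had 5 members higher (Tmem8c, Tmem182, Myof, Dysf and Cdh2), 1 lower (Kirrel) and 3 not called, where 39.0% of all genes were called, 18.1% higher and 20.9% lower. Both of these comparisons use the same satellite cell libraries. Median log2 fold changes of the 9 genes were -0.82 for +Dox and 2.83 for -Dox, beside -0.17 and -0.23 over all genes, and each median was the same with Tmem182 at its bound. Groups did not overlap for 6 members in +Dox against satellite cells and for 8 in -Dox against satellite cells, as for 56.5% and 64.3% of all genes.

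The satellite cell libraries had higher sums than the cultured cells for markers of other muscle-resident cells, apart from those of smooth muscle and pericytes in -Dox cells. Of 8 fibroadipogenic markers, none had a mean under 10 normalized read counts in satellite cells, and their sum was 74534 to 140685 there, 5250 to 12598 in +Dox and 4155 to 5942 in -Dox libraries. The 8 endothelial markers summed to 18590 to 25859 in satellite cells and to at most 949.8 in iPax7 libraries, where 6 of the 8 had a mean under 10 in each group. For blood and immune markers the sums were 10441 to 25146 and at most 709.9, and for Schwann cell markers 8360 to 11907 and at most 3272. Smooth muscle and pericyte markers, which include the muscle gene Des, summed to 46991 to 67299 in satellite cells, 5244 to 9345 in +Dox and 78185 to 78872 in -Dox libraries. Markers of satellite cells summed to 709800 to 1047088 in satellite cells against 186345 to 263234 in +Dox libraries. The largest part was Sdc4 in satellite cells, with a mean of 654640, and Myf5 in +Dox cells, with 143916. Of these 8 markers, 6 were called lower in +Dox than in satellite cells, Pax7 was called higher and Myf5 was not called. The 8 pluripotency markers summed to at most 126.6 in any library. These levels moved with every difference from satellite cells given here, and their part in it was not tested.

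Other genes of the fusion pathway, from a list of 73 beside the 9, went in either direction or were not called. Of the 64 that passed the filter, 10 were higher, 7 were lower and 47 were not called in -Dox against +Dox cells, where 4.66% of all genes were higher and 3.04% lower, with a median log2 fold change of 0.07. Both fusogens rose, counting Tmem8c. Of 9 ferlins and partners tested, the members Myof and Dysf included, Dysf and Trim72 were called higher and none was called lower. Trim72, or mitsugumin, which acts with dysferlin in membrane repair, went from 15.0, 14.8 and 16.4 to 889.6 and 861 normalized read counts (log2 fold change 5.82, SE 0.72, adjusted p = 0.0015).

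The list of adhesion receptors had 26 genes tested, of which 5 were higher, 6 were lower and 15 were not called. It also held the caveolin Cav3 and the members Tmem182, Jam2, Jam3, Kirrel, Adam12 and Cdh2. Tmem182 and Cav3 were among the higher ones, and the other members named were not called. Ncam1, a neural cell adhesion molecule of young muscle fibres, rose from between 3891 and 5452 to 85199 and 81174 normalized read counts (log2 fold change 4.11, SE 0.25, adjusted p = 3.04e-05). Cav3, the caveolin of muscle, rose from at most 59.2 to 6219 and 5669 (log2 fold change 7.87, SE 1.47, adjusted p = 0.0111). The integrin chains Itga7 and Itga9 rose as well, with log2 fold changes of 3.30 (adjusted p = 0.0257) and 2.13 (adjusted p = 0.0125). Among those that fell were Cdh4 (log2 fold change -2.98), Boc (-2.94), a receptor that promotes myogenic differentiation, Cadm1 (-2.04), Vcam1 (-1.71), Adam9 (-1.48) and Neo1 (-1.29), with adjusted p from 0.00196 to 0.0407. Vcam1, a satellite cell marker and ligand of integrins, fell from between 12034 and 20426 to 5617 and 5122 normalized read counts.

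Of 23 genes of actin remodelling, 2 rose, 1 fell and 20 were not called. The guanine nucleotide exchange factor Trio rose from between 925 and 1010.3 to 4508 and 4196 normalized read counts (log2 fold change 2.18, SE 0.33, adjusted p = 0.00387). Sh3pxd2a, a scaffold of podosomes, rose (log2 fold change 1.42, SE 0.37, adjusted p = 0.0461) and Dock1, an activator of Rac, fell (log2 fold change -1.05, SE 0.27, adjusted p = 0.0433). Among 5 genes for the recognition of phosphatidylserine, the scavenger receptor Cd36 rose from at most 8.20 to 2513 and 1592 normalized read counts (log2 fold change 9.63, SE 0.91, adjusted p = 0.000272), and in satellite cells it had 17231, 15319.7 and 14153. Of 8 soluble and transcriptional regulators tested, Igf1 alone was called, as higher (log2 fold change 2.42, SE 0.52, adjusted p = 0.0222), and 7 were not. Among these 7, Mstn (3.87, adjusted p = 0.0657) and Capn3 (7.52, adjusted p = 0.0630) were higher in both -Dox libraries than in every +Dox library. Nfatc2 (-1.06, adjusted p = 0.0960) was lower in both.

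**Figure D3:**
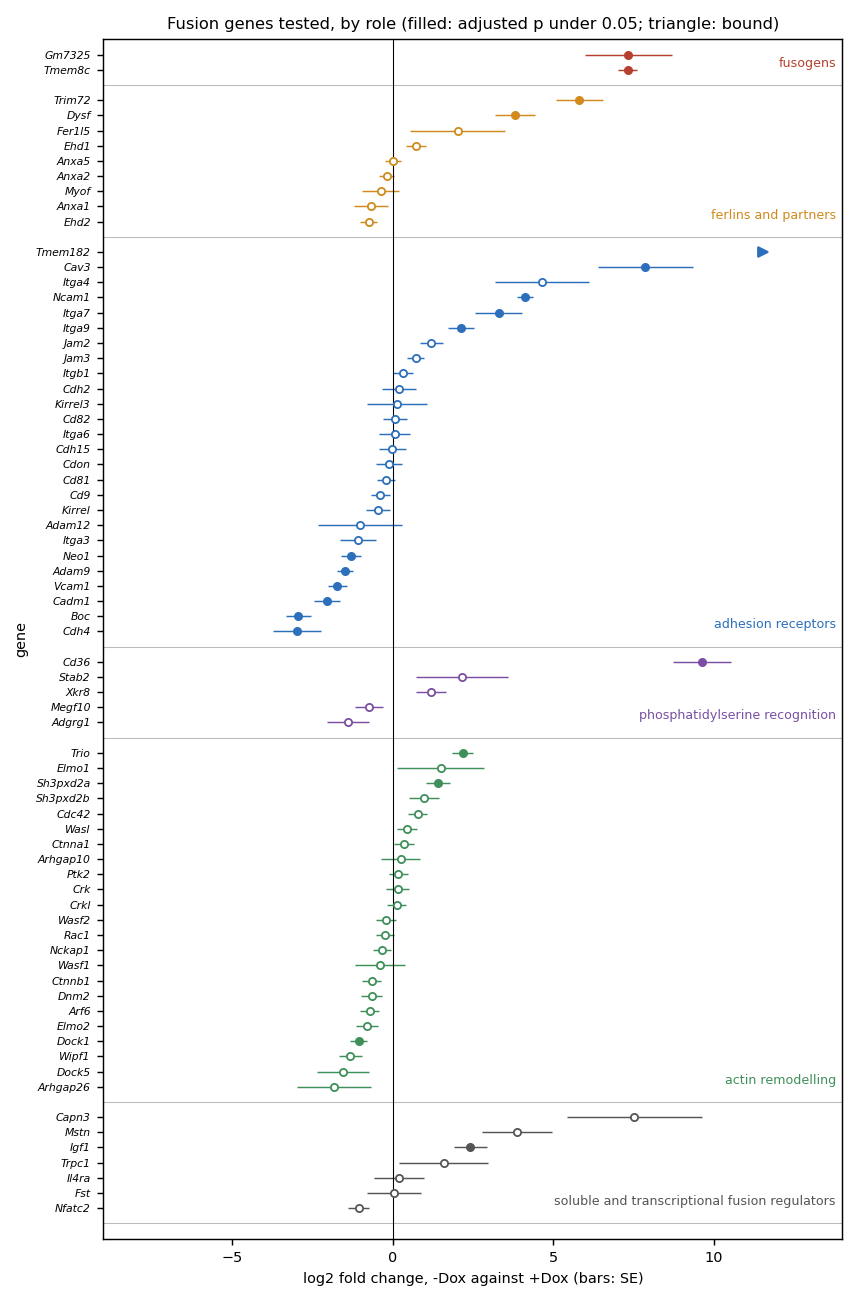
The log2 fold change of -Dox against +Dox cells is plotted on the x axis for the genes of the fusion list that passed the filter, grouped by role, with bars for the SE, filled points for an adjusted p under 0.05 and a triangle for the bound of Tmem182. Mrc1, with no read in any +Dox library, is left out. Open points mark 15 of the 26 genes listed as adhesion receptors, members included, and 20 of the 23 actin genes. Both fusogens are filled and stand near 7.

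Against satellite cells 16 of the 64 genes were higher, 27 lower and 21 not called in +Dox cells, where 44.9% of all genes were called. In -Dox cells 17 were higher, 19 lower and 28 not called, where 39.0% of all genes were called. The median log2 fold changes were -0.31 and -0.35. The state of the cells, read from other genes, changed together with the fusogens. In -Dox against +Dox cells, Myog (log2 fold change 5.40, adjusted p = 7.75e-06), Mef2c (8.68, adjusted p = 4.30e-05) and Myh3 (9.16, adjusted p = 0.00186), all of differentiating muscle, rose. Pax7 (-5.71, adjusted p = 8.08e-05), Myf5 (-3.64, adjusted p = 0.000233) and the proliferation genes Mki67 (-4.18, adjusted p = 0.00802) and Cdk1 (-3.27, adjusted p = 0.0261) fell. Myod1 was not called (log2 fold change -0.52, SE 0.41, adjusted p = 0.545), and it had between 20392 and 26074 normalized read counts in satellite cells and at most 321 in +Dox libraries.

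Accessible starts were common among the members. An ATAC-seq peak lay within 1 kb of an annotated start of 7 of the 9 genes in +Dox cells (63.2% of 22232 protein-coding genes), 8 at 12 h (61.3%), 24 h (64.3%) and 3 days without Dox (65.5%), and all 9 in iPax7 myotubes (61.8%). In satellite cells it was 7 (58.6%), in C2C12 myotubes 8 (54.1%), and in C2C12 myoblasts 5 without a transgene (45.0%), 7 with the Flag control (55.7%) and 7 with Pax7-Flag (56.8%). The files held between 42700 and 172103 peaks, and the one with the fewest was that of the C2C12 myoblasts without a transgene.

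Jam2, Jam3, Kirrel and Cdh2 had a peak in each of the 10 conditions. For Jam2 the fold enrichment was 14.6 in +Dox cells, 14.1 at 3 days without Dox, 27.7 in iPax7 myotubes and 18.7 in satellite cells. The summit of this Jam2 peak lay 1020 bp from the start in satellite cells and 86 to 104 bp from it in the iPax7 states named. For Jam3 the fold enrichment was 19.4, 30.5, 25.2 and 13.5 in the same order. Kirrel had 13.0, 15.6, 10.5 and 15.0, and Cdh2 had 17.6, 16.7, 15.7 and 12.7. At 12 h without Dox all 4 were below their values in +Dox cells and at 3 days, and Cdh2 stood at 10.6. In C2C12 myoblasts Cdh2 had 22.3 with the Flag control and 19.3 with Pax7-Flag. The summit of the highest Cdh2 peak lay 208 bp upstream of the start in +Dox cells and 441 bp upstream at 3 days. At 12 h it lay 651 bp downstream, and with the Flag control 659 bp downstream. Adam12 had low peaks, at 5.68, 7.68, 8.09 and 5.86, at the second of its 3 annotated starts, where the first had a peak at 3 days (3.05) and in C2C12 myoblasts with the Flag control (3.07) alone. At the second start, the summits lay 1062 bp downstream in +Dox cells and 1052 bp downstream at 3 days. They lay 93 bp downstream in iPax7 myotubes and 384 bp upstream in satellite cells.

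**Figure D4:**
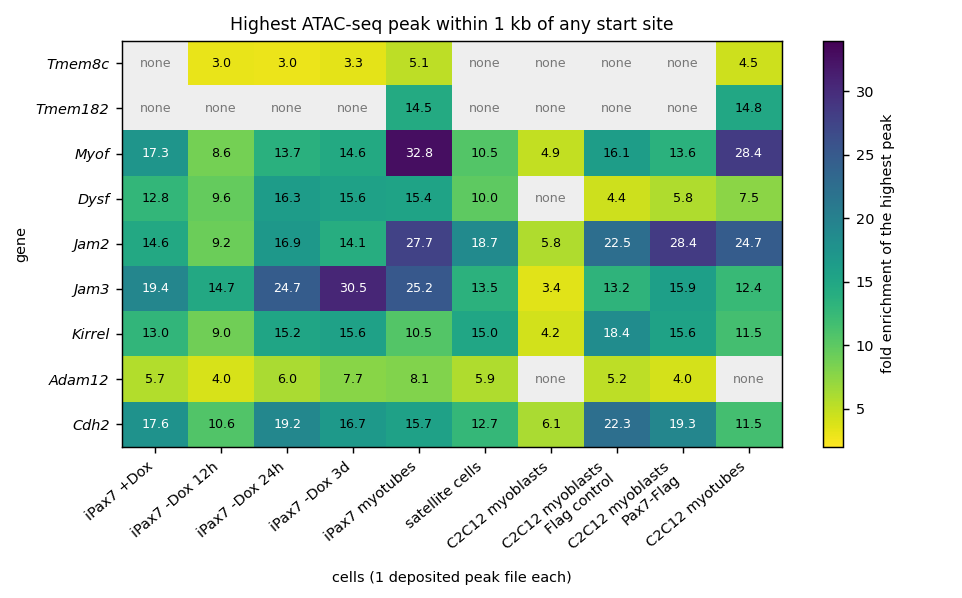
Rows are the 9 genes and columns the 10 ATAC-seq conditions, and each cell gives the fold enrichment of the highest peak within 1 kb of any start, with grey for no peak. The highest peak of a gene does not lie at the same place in every condition. The rows of Tmem8c and Tmem182 are mostly grey outside myotubes, and those of Jam2, Jam3, Kirrel and Cdh2 are filled throughout.

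Histone marks of active chromatin lay at most members, Tmem8c in +Dox cells and Tmem182 at 3 days included, where no ATAC-seq peak was called within 1 kb. H3K27Ac, found at active promoters and enhancers, had a peak within 1 kb of 8 of the 9 genes in +Dox cells (48.0% of all genes) and of all 9 at 3 days without Dox (45.2%). H3K4me1 gave 8 (61.6%) and 9 (64.7%), and H3K4me3, a mark of promoters, gave 8 (60.4%) and 9 (66.0%). Counting only peaks wholly inside the window, H3K27Ac was at 5 members in +Dox cells, H3K4me1 at 5 and H3K4me3 at 3, and H3K4me3 at 2 at 3 days. The gene that gained all 3 marks was Tmem182. H3K27me3, which marks silenced genes, lay at Adam12 alone in both iPax7 states (21.7% and 19.8% of all genes), covering 167 and 203 bp around its second start. In C2C12 myoblasts with the Flag control, H3K27Ac was at 8 members (53.7%), H3K4me1 at 8 (49.1%), H3K4me3 at 5 (45.2%) and H3K27me3 at 1, Jam3 (18.9%). With Pax7-Flag these were 8 (54.8%), 8 (63.5%), 4 (37.9%) and 1, again Jam3 (21.5%).

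Of the 2455 Pax7 sites of +Dox cells, 3 lay inside or within 5 kb of a member, at Kirrel and Cdh2. A site within 5 kb of a start was present at 1 of the 9 genes, Kirrel, as at 2.53% of protein-coding genes, and a site inside the gene at 2, Kirrel and Cdh2, as at 4.78%. The nearest site to Tmem8c was 103 kb from its start and that to Tmem182 was 188 kb away, distances within which 19% and 30% of genes had one. Myof (194 kb), Jam3 (125 kb), Adam12 (837 kb), Dysf (876 kb) and Jam2 (1105 kb) were farther than Kirrel (0.774 kb) and Cdh2 (38.8 kb) as well. Distances run from the nearest annotated start, which for Cdh2 is the second of its 2 and lies inside the gene.

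At Kirrel one site of 380 bp (chr3:86979443-86979822) lay 774 to 1153 bp upstream of the start, and another of 771 bp (chr3:86893702-86894472) lay inside the gene with its centre in an intron. The middle 300 bases of each are shown as the places where Pax7 bound a member. Capitals mark TAAT on either strand, the core that homeodomains such as that of Pax7 bind. There were 3 in the upstream site and 4 in the other, and at least 3 were present in 42.7% and at least 4 in 28.4% of all Pax7 sites cut to this length.
Kirrel upstream site, chr3:86979483-86979782, minus strand: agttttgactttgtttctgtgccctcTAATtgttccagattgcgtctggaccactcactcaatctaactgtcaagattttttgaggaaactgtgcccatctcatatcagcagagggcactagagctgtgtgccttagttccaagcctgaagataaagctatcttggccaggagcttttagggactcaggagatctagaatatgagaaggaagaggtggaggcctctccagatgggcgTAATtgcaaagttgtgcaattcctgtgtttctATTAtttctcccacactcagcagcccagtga
Kirrel intron site, chr3:86893938-86894237, minus strand: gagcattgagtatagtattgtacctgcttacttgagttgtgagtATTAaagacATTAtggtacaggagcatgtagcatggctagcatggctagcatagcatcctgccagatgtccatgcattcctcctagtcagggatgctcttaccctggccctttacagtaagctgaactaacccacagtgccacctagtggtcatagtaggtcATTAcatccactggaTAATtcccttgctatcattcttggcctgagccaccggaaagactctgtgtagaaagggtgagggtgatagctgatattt

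The fold enrichment at the Kirrel intron site was highest in +Dox cells, at 14.9 beside 6.07 at 12 h, 11.5 at 24 h, 10.1 at 3 days and 6.37 in iPax7 myotubes. Satellite cells had 5.47 there, and C2C12 myoblasts had 6.53 with the Flag control and 4.91 with Pax7-Flag. H3K27Ac and H3K4me1 had no peak at it in +Dox cells, and at 3 days without Dox they covered 23 and 403 of its 771 bp. The upstream site was overlapped by peaks of 5.77 in +Dox cells, 4.32 at 12 h, 15.2 at 24 h, 15.6 at 3 days and 15.0 in satellite cells, and the peaks at 24 h and 3 days and in satellite cells are those that gave the highest value at the start itself. Fold enrichments were not scaled between files. Every member with a start peak in +Dox cells also had a lower highest peak at 12 h, as Jam3 did (19.4 and 14.7). Tmem8c went from no peak to 3.04. Whether lower values at Pax7 sites go beyond this was not tested.

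The Cdh2 site of 588 bp (chr18:16867372-16867959) lay inside the gene and outside its exons. All 5 iPax7 states had an ATAC-seq peak there, with fold enrichments of 7.06 in +Dox cells, 2.22 at 12 h, 4.32 at 24 h, 4.81 at 3 days and 13.0 in myotubes. Neither satellite cells nor any of the 4 C2C12 conditions had one, where 53% of all Pax7 sites had a peak in satellite cells and 71% in C2C12 myoblasts with Pax7-Flag. H3K27Ac, H3K4me1 and H3K4me3 had peaks at this site in both +Dox cells and at 3 days without Dox. In C2C12 myoblasts H3K27Ac covered 197 of the 588 bp with the Flag control and all 588 with Pax7-Flag. H3K4me1 covered all 588 bp in both, and H3K4me3 had no peak in either. The Cdh2 transcript was high in both iPax7 groups and low in satellite cells, and no RNA library was from C2C12. A link between the site and the transcript was not tested.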

How the data were processed

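Count files of 8 RNA-seq libraries, 10 ATAC-seq peak files, 16 histone mark peak files and 1 file of Pax7 sites were used. The authors deposited raw whole-number counts per gene symbol, in 1 file per library. The submitters' processing notes name Trimmomatic 0.32, Bowtie2 2.2, TopHat2 2.0, HTSeq 0.6 and edgeR. Reads left unassigned by the counting stayed out of library sizes, among them the 7.11 to 30.7% that aligned to several places. For ATAC-seq the authors aligned reads with Bowtie2 2.2.6 to mm9, removed duplicates with Picard and mitochondrial reads, shifted the ends for the transposase, merged replicates and called peaks with MACS2 2.0.10. The deposited fold enrichment of a peak is a ratio to the background, and its -log10 q was used for a stricter setting. Histone mark peaks were called by the authors with Qeseq on merged replicates, so they are positions with no height, and Pax7 sites are those found in several +Dox replicates and in no -Dox replicate.

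Tests used edgeR 4.0.16 (R 4.3.3) with the quasi-likelihood test, 1 mean per group, all 8 libraries in the fit, TMM factors, filterByExpr and Benjamini-Hochberg adjustment over 14836 genes. Normalized read counts are counts scaled to 1 effective library size, the geometric mean over the 8 libraries. The SE was taken from the log2 fold change and its F statistic, whose root is the fold change in units of SE. Where a group had no read, the fold was set against 3 counts per library, which covers counting error only. RPKM used merged exon lengths of GENCODE M1 on NCBIM37, which is mm9. All 22 chromosomes named in the peak files are in that build and 0 peaks ran past an end. A peak counted when it overlapped the window of 1 kb on each side of a start, and starts within 500 bp were merged. The 9 genes, the pathway list and the marker lists were chosen with earlier results of these data known. Of the pathway list, genes called in -Dox against +Dox cells with at least 100 normalized read counts in 1 group are named, at most 10 in each direction, and the most alike genes are those with the highest r among 12339 genes with that level. Counting could leave out reads of near-identical copies, as reads that aligned to several places stayed unassigned. Whether it used strand was not given in the sources used here. Alternatives were other scalings, filters, tests and windows, the replicate number as a block, and each library left out.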

Additional observations from a re-analysis of the deposited data

How the results depend on the processing

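Tmem8c, Tmem182 and Dysf were called higher after Dox withdrawal under every alternative, and so were Myof and Cdh2 against satellite cells in both iPax7 groups. With DESeq2, with the 2 groups alone, and with these plus the replicate block, 5 members were higher in -Dox than in +Dox cells (Jam2 and Jam3 added), and in the last of these 1 was lower (Myof). Over all genes, those higher numbered 691, and 1181, 1128 and 2023 under these 3 settings. Those lower numbered 451, and 1095, 1027 and 1994, with 266 under the replicate block on 8 libraries. Leaving out 1 library gave 3 to 4 members higher, and over all genes 363 to 823 higher and 125 to 621 lower, lowest without the second -Dox library. The first -Dox library left 369 and 139, the first +Dox library 452 and 222, and the second 437 and 193. In these fits a lone -Dox library was assumed to vary like the other groups.

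In +Dox against satellite cells, 1 member in place of 2 was lower when counts were scaled by their totals, with the replicate block on 2 groups, and without the first +Dox library (Jam2 lost), in a range of 1 to 3. In -Dox against satellite cells, 0 in place of 1 were lower with the replicate block on 8 libraries or on 2 groups, and 0 to 1 with a library left out. Over all genes, 1633 to 2969 were then higher and 1571 to 3352 lower, and the counts without the second -Dox library were 1764 and 1618. The replicate numbers did not pair the libraries (correlations of deviations from the group means from -0.04 to 0.03), so the block results are given here only. Directions that turned were all of differences not called. For Cdh2 in -Dox against +Dox it was -0.024 with scaling by totals and -0.19 with the replicate block, and for Jam3 in +Dox against satellite cells 0.0056 with upper-quartile factors, 0.32 by totals, 0.0026 with the block on 2 groups and, with a library left out, from -0.18 to 0.10, the highest without the third satellite cell library. For Jam2 in -Dox against satellite cells it was 0.080 by totals and, with a library left out, from -0.33 to 0.19, positive without the first -Dox library (0.078) or the second satellite cell library (0.19). Scaling by totals moved the median of all genes by -0.21, 0.38 and 0.17 in the 3 comparisons, and the cause was not tested.

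ATAC-seq counts of members kept within 1.5 times their value under all settings, but the peak of Tmem8c came and went. With 2 kb on each side Tmem8c gained one in +Dox cells, satellite cells and the 3 C2C12 myoblast populations. With stricter peaks it lost those at 12 h and 24 h. For histone marks, requiring a peak wholly inside the window gave fewer members. In +Dox cells H3K27Ac went from 8 to 5, H3K4me1 from 8 to 5 and H3K4me3 from 8 to 3, and at 3 days H3K4me3 went from 9 to 2 and H3K27me3 from 1 to 0. In C2C12 myoblasts with the Flag control H3K27Ac went from 8 to 3 and H3K4me3 from 5 to 2, and with Pax7-Flag H3K27Ac went from 8 to 4, H3K4me1 from 8 to 2, H3K4me3 from 4 to 1 and H3K27me3 from 1 to 0. When a mark had to cover at least 50% of the window, H3K27Ac in +Dox cells was at 4 members, H3K4me1 at 2 with the Flag control and 4 with Pax7-Flag, and H3K27me3 at 0 in all 4 conditions. With 2 kb on each side, H3K27me3 was at 2 members in +Dox cells, at 3 days and with the Flag control. Low counts limit Adam12, with 3 reads in 1 -Dox library, and Tmem182, with none in +Dox libraries, and the peak files have no replicates.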
